A study of Mus musculus with 9 samples.

Results

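The 10 genes described here encode enzymes, structural proteins, transporters, transcription factors and a tetraspanin of the pigment cell, the melanocyte. They are Tyr, Tyrp1, Dct, Pmel, Mlana, Slc45a2, Oca2, Mitf, Sox10 and Tspan10. They were chosen by symbol, each was on 1 row, and they are 10 of the 37801 genes used from the expression table. Expression was measured by RNA-seq as FPKM, sequenced fragments scaled by transcript length and library depth, in 9 mouse libraries.

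The libraries formed 3 groups of 3. WT libraries came from albino FVB/NJ mice with wild-type Nras and wild-type MHCII. Tyr-NrasQ61K libraries came from mice of an FVB/NJ cross that carry activated NRAS under a tyrosinase promoter, which is active in melanocytes, with wild-type MHCII, and are labelled Cre-negative. MHCII-KO libraries came from mice of the same cross with the same oncogene, are labelled Cre-positive and MHCII-negative, and are called MHCII-KO after their label. The Cre driver, the cells in which MHCII was lost, and the age of the mice were not stated in what was read here. The protocol describes the wild-type controls as albino littermates without the transgene, while the strain entry is FVB/NJ for WT and FVB/NJ (Cross) for the other groups. Whether background differs with the oncogene in these libraries was not tested. The labels call the source nevus melanocytes, whereas the study describes RNA from lymph nodes. Nothing in the labels says that the 3 libraries of a group came from separate animals, and p-values then measure only the spread between these samples.

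Melanocytes make melanin in an organelle called the melanosome. Tyrosinase (Tyr) starts the synthesis from tyrosine, and the related enzymes TYRP1 and DCT act later in the pathway. The transcription factor MITF drives many pigment genes and SOX10 lies upstream of it, while albino FVB/NJ mice lack working tyrosinase and make no melanin.

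Across the libraries the sequencing depth, estimated from the FPKM worth of 1 fragment, was 6480000 to 14500000 fragments. Lymphocyte markers were high in every library: 8 B cell genes summed to 681 to 2655 FPKM and 8 T cell genes to 153 to 383 FPKM. The targeted genes did not separate the groups. Nras was 14.3, 10.3 and 14.7 FPKM in WT, 10.7, 5.55 and 14.4 in Tyr-NrasQ61K and 10.8, 7.48 and 11.1 in MHCII-KO libraries, and these values do not distinguish the transgene from the mouse gene. The MHC class II gene H2-Ab1 was 183, 101 and 170 FPKM in WT, 149, 276 and 207 in Tyr-NrasQ61K and 271, 108 and 165 in MHCII-KO libraries, so the values of the libraries labelled MHCII-KO overlapped those of both other groups. On the first principal component, replicate 2 of Tyr-NrasQ61K lay at 101.9 and replicate 2 of MHCII-KO at 78.6, apart from the other 7 at -74.1 to 21.8. On the second component replicate 3 of Tyr-NrasQ61K lay at -100, apart from the other 8 at -12.9 to 35.0. Results without these libraries are given where a call rests on them.

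Most of the melanocyte genes, but not all, had higher values in the oncogene-bearing libraries than in WT. Of the 10 genes, 7 (Tyrp1, Dct, Pmel, Mlana, Slc45a2, Oca2 and Tspan10) had every one of the 6 NrasQ61K libraries above every WT library, whereas 3.41% of the 29980 entries above 0 in any library did so. Some of these gaps rest on few estimated fragments. Mlana had 3.46 in MHCII-KO replicate 2 against 3.56 in WT replicate 1, and Slc45a2 had 1.97 in MHCII-KO replicates 1 and 2. By the longest transcript, Oca2 had 9.33 and 9.1 in MHCII-KO replicates 1 and 2 against 9.55 in WT replicate 3. Tyrp1 had 1.03 in Tyr-NrasQ61K replicate 2 by its longest transcript. Since all 6 lay above WT, the same 7 also lay above WT in Tyr-NrasQ61K alone and in MHCII-KO alone, which adds no further result. Over all entries, 7.05% did so in Tyr-NrasQ61K and 6.66% in MHCII-KO. The 10 genes were chosen with earlier results of these data known, so setting them beside these shares is a description and not a test. These comparisons share the WT libraries. Tyr, Mitf and Sox10 overlapped WT in each of them. In a bulk sample, fewer cells of a type and less RNA per cell cannot be told apart.

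Summed over the 10 genes, the WT level was 6.51 to 11.1 FPKM, the Tyr-NrasQ61K level 28.0 to 38.9 and the MHCII-KO level 23.2 to 32.4. The share of Tspan10 in the sum was 40.2% to 48.9% for WT, 52.1% to 53.6% for Tyr-NrasQ61K and 61.1% to 69.4% for MHCII-KO. Without Tspan10 the other 9 genes summed to 3.89 to 5.67, 13.4 to 18.04 and 7.10 to 12.6 FPKM. Here too no NrasQ61K library fell into the WT range. In WT, where Dct had a mean of 0.0276 FPKM, the highest means were Tspan10 at 4.10, Mitf at 2.86 and Tyr at 1.41. Which cells gave these levels was not tested.

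**Figure D1:**
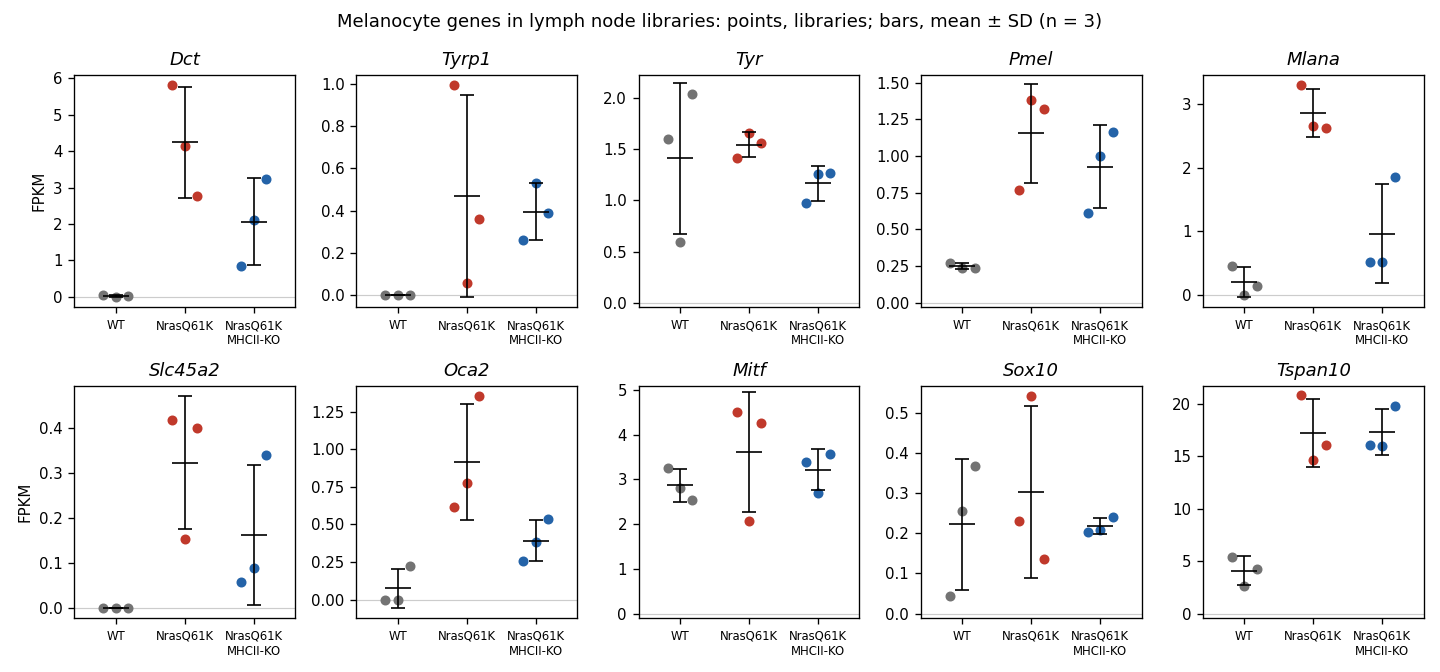
FPKM (vertical axes, a different scale in each panel) of the 10 melanocyte genes in the 9 libraries, with points for libraries and a bar and whiskers for the mean ± SD of the 3 in a group. In 7 panels every NrasQ61K library lies above every WT library, though some of these gaps rest on few fragments. In the panels of Tyr, Mitf and Sox10 the groups overlap.

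Of the melanin enzymes, Dct (dopachrome tautomerase) gave the widest separation. The gene (ENSMUSG00000022129) lies at chr14:118012790-118052244 on the minus strand in mm10 and overlaps an antisense gene, 4930435M08Rik. Its FPKM was 0.0508, 0 and 0.0319 in WT, 5.81, 4.16 and 2.77 in Tyr-NrasQ61K and 0.847, 2.10 and 3.25 in MHCII-KO libraries. The lowest NrasQ61K library stood 16.7-fold above the highest WT library. The group means were 0.0276 ± 0.0257, 4.25 ± 1.52 and 2.07 ± 1.20 FPKM (SD, n = 3). In fragments, the WT values are close to 1, 0 and 1 and the NrasQ61K values run from 21.5 to 151, taking the coding transcript of 2202 bases. Dct was called higher in Tyr-NrasQ61K than in WT, by 2.31 ± 0.324 (SE) on the log2(FPKM + 1) scale with a limma adjusted p of 0.0431. It was 1.5 ± 0.324 higher in MHCII-KO than in WT, which did not pass (limma adjusted p = 0.201), and 1.90 ± 0.281 higher in both groups together (limma adjusted p = 0.0362). The added 1 compresses fold changes of low genes, so these understate the separation.

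The Dct call depended on single libraries. In the Tyr-NrasQ61K comparison the limma adjusted p was 0.0653 to 0.163 when any 1 of the 6 libraries compared was left out, and 0.0710 without MHCII-KO replicate 2. For both groups together it was 0.171, 0.0660 and 0.180 without WT replicates 1, 2 and 3, and 0.0641 and 0.0671 without Tyr-NrasQ61K replicates 1 and 2. It was 0.0898 and 0.0688 without MHCII-KO replicates 2 and 3. Without the pair of libraries that stood apart on the first component it was 0.134, and without Tyr-NrasQ61K replicate 3, apart on the second, it was 0.0470. The fold change itself stayed between 1.77 and 2.07 when 1 library was left out.

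Tyrp1, tyrosinase-related protein 1 (ENSMUSG00000005994, chr4:80834123-80851719, plus strand), was listed at 0 in all WT libraries. It was 0.992, 0.0582 and 0.360 FPKM in Tyr-NrasQ61K and 0.263, 0.533 and 0.389 FPKM in MHCII-KO libraries. A count of 0 allows up to 3 fragments, which for its longest transcript is 0.0800 to 0.127 FPKM in WT, so Tyr-NrasQ61K replicate 2 lies below what the WT depth could show and the other 5 libraries above it. For its shortest coding transcript the same limit is 0.411 to 0.652 FPKM, which of the 6 only Tyr-NrasQ61K replicate 1 exceeds in full, and the files do not say which transcript the reads came from. Tyrp1 and 3 others (Slc45a2, Oca2 and Sox10) missed the filter of FPKM 1 in at least 3 libraries. They were fitted only without it, where limma gave Tyrp1 an adjusted p of 0.285 for both groups together.

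Tyr itself (ENSMUSG00000004651, chr7:87424771-87493512, minus strand) went another way. Its FPKM was 1.59, 0.595 and 2.04 in WT, 1.41, 1.65 and 1.56 in Tyr-NrasQ61K and 0.970, 1.26 and 1.27 in MHCII-KO libraries. WT replicates 1 and 3 were as high as, or higher than, most NrasQ61K libraries, and the WT group alone spanned the range of the others. The difference of both groups from WT was 0.01 ± 0.208 on the log2 scale (limma adjusted p = 0.977), and its sign changed when WT replicate 2 was left out (-0.26). Its 3 transcripts of 516 to 6042 bases do not let the number of fragments behind these values be fixed.

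Among the melanosome structural genes, Mlana (melan-A) and Pmel (which builds the fibrils on which melanin is laid down) were measured. Mlana (ENSMUSG00000024806) lies at chr19:29697824-29708634 and Pmel (ENSMUSG00000025359) at chr10:128704195-128720238, both on the plus strand. Mlana was 0.452, 0 and 0.143 FPKM in WT, 3.29, 2.65 and 2.63 in Tyr-NrasQ61K and 0.508, 0.508 and 1.86 in MHCII-KO libraries. The Tyr-NrasQ61K libraries all exceeded the MHCII-KO libraries, and MHCII-KO replicates 1 and 2 stood only 1.12-fold above the highest WT library. In fragments these are 3.56, 0 and 1.78 in WT and 5.30 and 3.46 in those MHCII-KO libraries, too few to separate them from WT at this depth.

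For Mlana the difference from WT was 1.70 ± 0.280 in Tyr-NrasQ61K (limma adjusted p = 0.0687), 0.66 ± 0.280 in MHCII-KO (limma adjusted p = 0.329) and 1.18 ± 0.242 in both (limma adjusted p = 0.10), none past the threshold. Pmel was 0.271, 0.240 and 0.238 FPKM in WT, 0.769, 1.38 and 1.32 in Tyr-NrasQ61K and 0.616, 1.004 and 1.17 in MHCII-KO libraries. Its lowest NrasQ61K library was 2.27-fold above the highest WT library, and the means were 4.63-fold and 3.72-fold those of WT. The difference of both groups from WT was 0.69 ± 0.163 on the log2 scale, with a limma adjusted p of 0.131. Pmel overlaps Cdk2 and Dgka on the opposite strand, and no source used here says that the counting kept strands apart.

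The transporters Slc45a2 and Oca2, which set the conditions inside the melanosome, were low. Slc45a2 (ENSMUSG00000022243) lies at chr15:11000721-11029233 and Oca2 (ENSMUSG00000030450), which overlaps the antisense gene Gm44506, at chr7:56239760-56536518, both on the plus strand. Slc45a2 was listed at 0 in the 3 WT libraries, and was 0.416, 0.153 and 0.399 FPKM in Tyr-NrasQ61K and 0.0575, 0.0880 and 0.340 in MHCII-KO libraries. In fragments, taking its 1 transcript, the NrasQ61K values were 14.7, 2.95, 13.7, 1.97, 1.97 and 14.7. Since 3 fragments correspond to 0.0730 to 0.116 FPKM in WT, MHCII-KO replicates 1 and 2 cannot be told from WT at this depth. Oca2 was 0, 0 and 0.221 FPKM in WT, 0.615, 0.780 and 1.36 in Tyr-NrasQ61K and 0.259, 0.386 and 0.534 in MHCII-KO libraries. WT replicate 3 came within 1.17-fold of the lowest NrasQ61K library. In fragments, WT replicate 3 had 1.39 by the shortest and 9.55 by the longest coding transcript of Oca2. MHCII-KO replicates 1 and 2 had 1.36 and 1.32 by the shortest and 9.33 and 9.1 by the longest. For Oca2 they cannot be told from WT replicate 3 at this depth. Without the filter, limma gave adjusted p of 0.258 for Slc45a2 and 0.186 for Oca2 for both groups together.

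**Figure D2:**
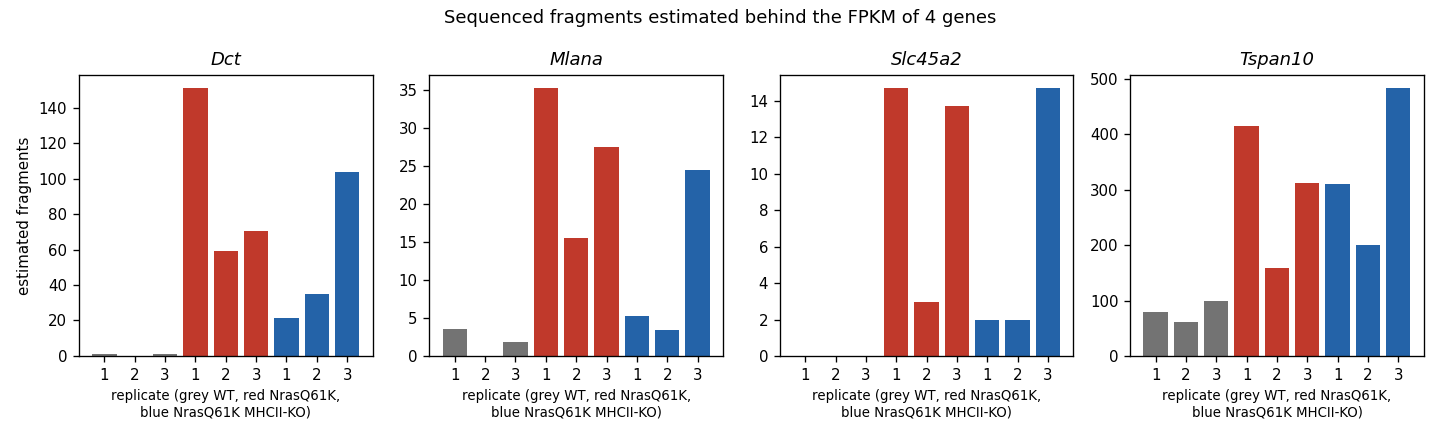
Estimated sequenced fragments (vertical axes from 0, a different scale in each panel) behind the FPKM of Dct, Mlana, Slc45a2 and Tspan10 in each library, from FPKM, transcript length and estimated depth. WT bars for Dct are at 0 or about 1 fragment, while Tspan10 has 60.4 or more in every library.

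The transcription factors did not separate the groups. Mitf (ENSMUSG00000035158) lies at chr6:97807052-98021349 on the plus strand and Sox10 (ENSMUSG00000033006) at chr15:79154908-79165240 on the minus strand. Mitf was 3.26, 2.80 and 2.53 FPKM in WT, 4.498, 2.06 and 4.26 in Tyr-NrasQ61K and 3.38, 2.70 and 3.57 in MHCII-KO libraries. Tyr-NrasQ61K replicate 2, apart on the first component, was below all WT libraries and replicates 1 and 3 above them. The difference of both groups from WT was 0.17 ± 0.210 (limma adjusted p = 0.636). Sox10, also a marker of Schwann cells, was 0.0449, 0.256 and 0.366 FPKM in WT, 0.230, 0.542 and 0.136 in Tyr-NrasQ61K and 0.204, 0.208 and 0.242 in MHCII-KO libraries. Its groups overlapped throughout, and without the filter its difference was 0.05 with a limma adjusted p of 0.839.

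Mitf and Sox10 are also expressed outside melanocytes. Mast cells use Mitf, and the 10 mast cell markers, which include Kit, summed to 63.1 to 247 FPKM for WT, 13.5 to 44.4 for Tyr-NrasQ61K and 22.8 to 39.1 for MHCII-KO. None was called, but all 10 were below 0 in the comparison of both groups with WT, with a median log2 change of -1.48 against -0.16 over all genes tested. Their limma adjusted p ran from 0.0645 (Ms4a2, log2 change -1.16) to 0.216. Their part in the Mitf level was not tested. The 14 Schwann cell markers summed to 24.5 to 36.0 FPKM for WT, 19.9 to 30.1 for Tyr-NrasQ61K and 20.9 to 28.7 for MHCII-KO, and no tested one was called.

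Tspan10, a tetraspanin (ENSMUSG00000039691, chr11:120442644-120446950, plus strand), was the highest of the 10 genes in every group. Its FPKM was 5.42, 2.62 and 4.26 in WT, 20.8, 14.6 and 16.1 in Tyr-NrasQ61K and 16.1, 15.9 and 19.8 in MHCII-KO libraries. The lowest NrasQ61K library was 2.69-fold above the highest WT library, with 60.4 to 98.8 fragments in WT and 159 to 483 in the others. The group means were 4.19-fold and 4.22-fold that of WT. Tspan10 was called higher than WT in both groups together by 1.87 ± 0.221 (limma adjusted p = 0.0133), in Tyr-NrasQ61K by 1.86 ± 0.255 (limma adjusted p = 0.0411) and in MHCII-KO by 1.88 ± 0.255 (limma adjusted p = 0.0451).

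The Tspan10 call for both groups together was lost without WT replicate 3 (limma adjusted p = 0.0756) and without MHCII-KO replicate 3 (0.0505). It held without the pair of libraries apart on the first component (0.0454) and without Tyr-NrasQ61K replicate 3 (0.0307). In the 2 comparisons of single groups it was lost on leaving out any library, with adjusted p from 0.0639 to 0.150 for Tyr-NrasQ61K and from 0.0524 to 0.242 for MHCII-KO, while the fold change kept its sign. Of the genes tested, 0.205% were called higher in both groups together, 0.163% in Tyr-NrasQ61K and 0.0784% in MHCII-KO. Of the 6 melanocyte genes tested, those called higher were 2 (Dct and Tspan10) in both groups together, the same 2 in Tyr-NrasQ61K, and 1 (Tspan10) in MHCII-KO. Without the filter, when all 10 genes were fitted, limma called Tspan10 in both groups together (adjusted p = 0.0285), where 0.0767% of entries were called higher. It called none of the 10 in Tyr-NrasQ61K, against 0.05% of entries, or in MHCII-KO, against 0.0267%, while 7 and 5 of the 10 had an unadjusted p under 0.05, beside 12.1% and 11.1% of all entries. The median log2 change of the 6 was 0.94, 1.24 and 0.64, beside -0.16, -0.12 and -0.22 over all genes tested.

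**Figure D3:**
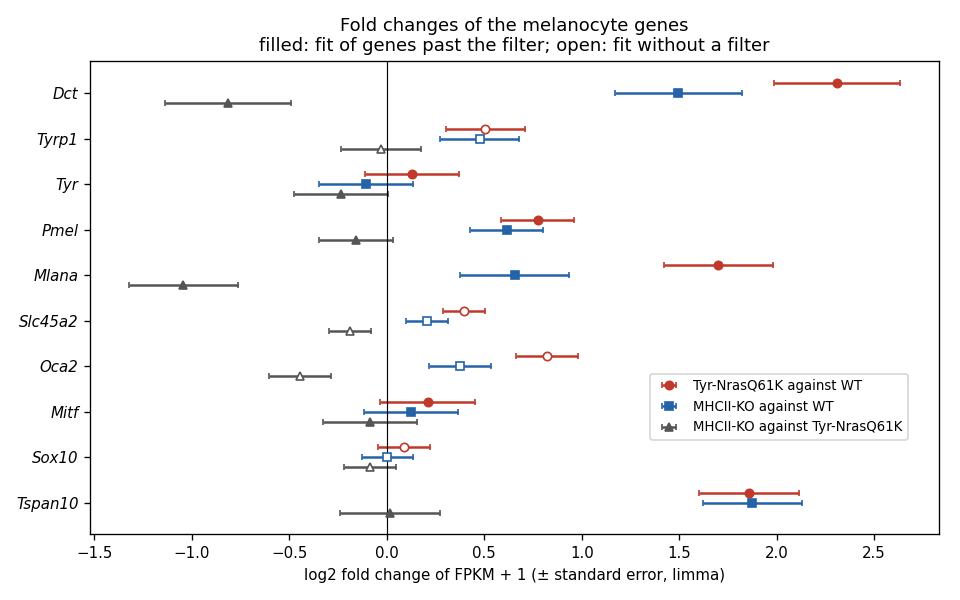
Log2 fold change of FPKM + 1 (horizontal axis, ± standard error from limma) of the 10 genes in 3 comparisons, filled for the 6 genes past the filter and open for the 4 fitted only without it. Dct and Tspan10 lie farthest to the right of 0 against WT, and Mlana and Dct farthest to the left between the NrasQ61K groups.

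Between the groups that carry the oncogene, MHCII-KO against Tyr-NrasQ61K, no melanocyte gene was called by limma, where 0.0482% of all genes tested were. At an unadjusted p under 0.05 the count was 2 of 6, Dct and Mlana, beside 1.52% of all genes tested, and the adjusted p was 1.0 for both. Mlana differed by -1.04 with a 95% interval of -1.68 to -0.40, Dct by -0.81 (-1.56 to -0.07), and Pmel by -0.16 (-0.59 to 0.27). Tyr differed by -0.23 (-0.78 to 0.32), Mitf by -0.09 (-0.64 to 0.47) and Tspan10 by 0.02 (-0.57 to 0.60), and each of the last 4 intervals leaves room for a change in either direction. The values of 3 genes (Tyr, Mlana and Oca2) did not overlap and were lower in MHCII-KO, where 2.89% of entries did so. The other 7 overlapped. The number without overlap in either direction was 2 with median-ratio scaling and 5 without the 2 libraries apart on the first component.

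Other genes of the pigment pathway were read as well. Of 30 other melanosome and pigment genes, 27 were tested, and 2 were called higher in each comparison with WT, Gpnmb and Mfsd12. Over all genes tested, 0.163% were called higher in Tyr-NrasQ61K, 0.0784% in MHCII-KO and 0.205% in both groups together. Mfsd12, a lysosomal and melanosomal transporter, was 3.33 ± 0.961 FPKM in WT, 13.7 ± 0.678 in Tyr-NrasQ61K and 13.4 ± 3.02 in MHCII-KO (log2 change 1.76 in both groups together, limma adjusted p = 0.0132). Gpnmb, a glycoprotein of melanosomes and of phagocytes, was 3.12 ± 1.38, 150 ± 53.8 and 139 ± 27.3 FPKM (SD, n = 3; log2 change 5.17, limma adjusted p = 0.000386). None of the 27 was called lower, and their median was -0.11 in both groups together. Gpr143, Slc24a5 and Trpm1 missed the filter and were not tested. Gpr143 was at 0 in 7 of 9 libraries and above 0 only in Tyr-NrasQ61K replicates 1 and 2. The values of Slc24a5 overlapped between WT and both other groups. Trpm1 was 0.432, 0.373 and 0.436 FPKM in WT, 0.469, 0.687 and 1.28 in Tyr-NrasQ61K and 0.645, 1.45 and 0.414 in MHCII-KO libraries. Of 20 lineage regulators and receptors, 19 were found in the expression table and 9 were tested. None of the 9 was called, with a median of -0.28 in both groups together. Pax3, Tfap2a, Sox9 and Foxd3 were among those that missed the filter, so this median does not describe them. Kit, 1 of the 9, is also among the mast cell markers. Of the Mitf relatives Tfeb, Tfe3 and Tfec none was called. Tfeb was 14.2 ± 1.76 FPKM in WT, 26.6 ± 6.58 in Tyr-NrasQ61K and 19.7 ± 2.79 in MHCII-KO (log2 change 0.64 for both together, limma adjusted p = 0.196).

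Markers of other cells were read beside these results. Macrophage markers, which include Gpnmb, summed to 600 to 1263 FPKM for WT, 664 to 1700 for Tyr-NrasQ61K and 869 to 1475 for MHCII-KO. Of 11 tested, 3 were called higher in both groups together (Trem2, Gpnmb and Atp6v0d2), beside 0.205% of all genes tested. Trem2 rose from 1.20 ± 0.848 FPKM in WT to 21.9 ± 4.86 and 21.3 ± 3.47. The list did not move as a whole, since 7 of the 11 were above 0 and 4 below, the latter being Itgam at -1.38, Csf1r at -0.86, Adgre1 at -0.85 and Acp5 at -0.13, with limma adjusted p of 0.180, 0.203, 0.225 and 0.765. Those 4 were named after their values were seen. The 12 keratinocyte and skin markers summed to 6.87 to 8.81, 6.07 to 7.23 and 7.15 to 9.19 FPKM, of which Sfn alone gave 5.18 to 7.95 FPKM. Krt1, Krt15, Lor and Ivl were at 0 in 8 of 9 libraries, whereas Krt5, Krt14 and Trp63 were above 0 in 8 of 9. Krt14 was 0, 0.888 and 1.02 FPKM in WT, 0.355, 0.0975 and 0.0265 in Tyr-NrasQ61K and 0.396, 0.0800 and 0.165 in MHCII-KO libraries, highest in WT replicates 2 and 3. The part of macrophages in the levels of Tspan10, Mfsd12 and Gpnmb was not tested.

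**Figure D4:**
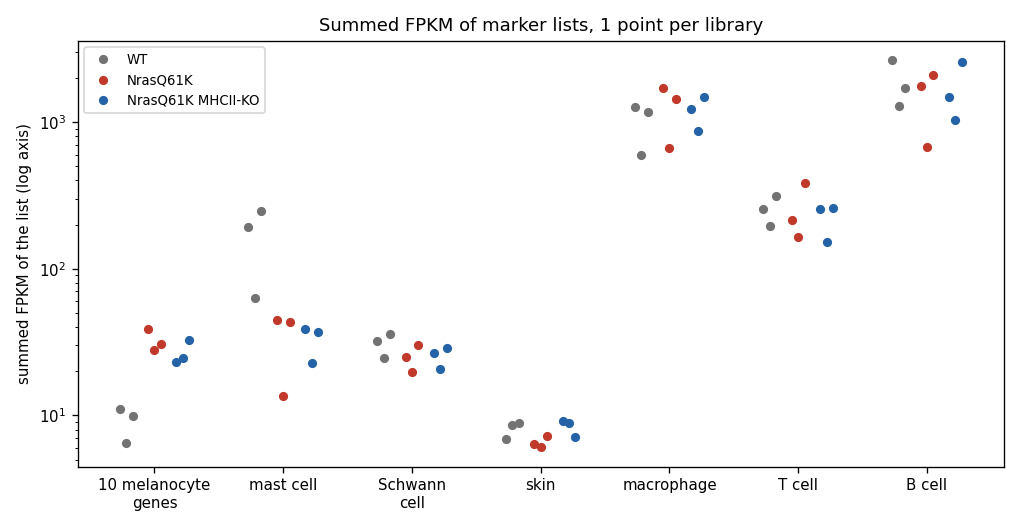
Summed FPKM (log axis) of the 10 melanocyte genes and of 6 lists of markers of other cells, 1 point per library. The melanocyte sum is above the WT range in all 6 NrasQ61K libraries and the mast cell sum is below it in all 6, while the macrophage, T cell and B cell sums overlap.

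Across the 6 NrasQ61K libraries, Mlana followed Dct most closely on the log2(FPKM + 1) scale, with Pearson's r = 0.871 (exact permutation p = 0.0125) and Spearman's rho = 0.943 (exact permutation p = 0.0167). Of the 9 relations with Dct none passed the Benjamini-Hochberg adjustment, which gave 0.113 and 0.150 for Mlana. Without the 2 libraries farthest from the median of Dct, r was 0.792. Since the points belong to 2 groups that differ in level, this includes the difference between groups, and each group has too few libraries for a value of its own. Among all tested genes, those nearest to Dct by the mean absolute log2 difference over 9 libraries, each gene taken relative to its WT mean, were Mamdc2 (0.289), Clec4d (0.319), Gdf15 (0.333), Anpep (0.353) and Cdk18 (0.367). Of the melanocyte genes Tspan10 was nearest at 0.370, and Tyr was farthest at 1.37.

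**Figure D5:**
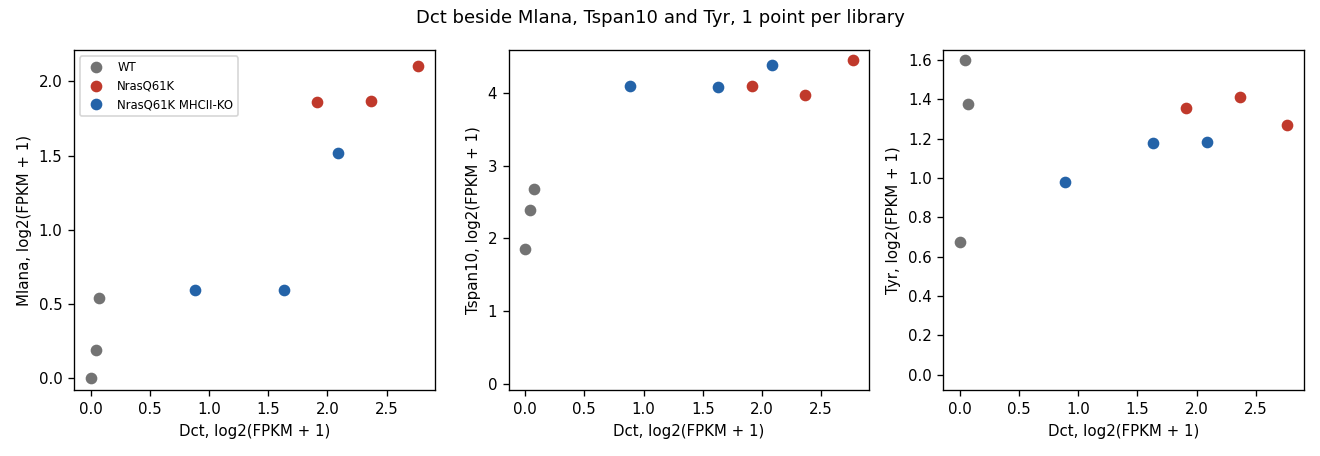
Level of Dct (horizontal axis) beside that of Mlana, Tspan10 and Tyr (vertical axes), all as log2(FPKM + 1), 1 point per library. The WT libraries have Dct at or near 0 in every panel, and their Tyr values nevertheless span those of the other libraries.

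The promoters of Dct, Tspan10 and Tyr are shown because these genes share a sequence but not a pattern. MITF binds E-boxes, of which CATGTG is a known form in pigment genes. The windows are the 250 bases before the RefSeq start in GRCm38.p6 (the C57BL/6J reference, not FVB/NJ), read 5′ to 3′ along the gene's strand, with CATGTG or its reverse complement CACATG in capitals. They lie at chr14:118052247-118052496 on the minus strand for Dct, at chr11:120442381-120442630 on the plus strand for Tspan10, and at chr7:87493513-87493762 on the minus strand for Tyr.
Dct: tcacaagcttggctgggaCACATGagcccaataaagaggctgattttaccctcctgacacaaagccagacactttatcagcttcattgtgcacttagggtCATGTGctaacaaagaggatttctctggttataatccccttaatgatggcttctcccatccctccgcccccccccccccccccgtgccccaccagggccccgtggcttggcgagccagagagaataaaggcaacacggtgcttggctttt
Tspan10: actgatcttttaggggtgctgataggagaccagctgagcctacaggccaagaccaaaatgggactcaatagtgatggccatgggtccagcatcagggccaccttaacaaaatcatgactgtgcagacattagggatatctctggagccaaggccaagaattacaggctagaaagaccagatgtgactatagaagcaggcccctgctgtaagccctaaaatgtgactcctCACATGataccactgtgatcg
Tyr: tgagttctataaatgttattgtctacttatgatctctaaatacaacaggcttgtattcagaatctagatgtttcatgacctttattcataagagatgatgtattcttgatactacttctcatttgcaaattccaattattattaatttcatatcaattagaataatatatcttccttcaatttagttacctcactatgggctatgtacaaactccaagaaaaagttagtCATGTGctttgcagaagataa

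Of the 6 melanocyte genes that had a window, 5 (Dct, Oca2, Tspan10, Tyr and Tyrp1, but not Mitf) had CATGTG or its reverse complement. It occurred in 5 of their 8 windows and in 12.2% of the 32851 RefSeq windows. It began 232 and 150 bases before the start in Dct, 21 in Tspan10, 21 in Tyr, 46 in Tyrp1 and 186 in Oca2. The longer TCATGTG contains CATGTG and was chosen after the windows had been seen. It was in 4 of the 8 windows (Dct, Tspan10, Tyr and Tyrp1) and in 3.25% of all windows. CACGTG was in none of the 8 and in 6.02% of all windows. These matches are letters in a window and do not mark bound sites. Of the genes with a match, Dct and Tspan10 were called higher than WT in both groups together. Tyrp1 and Oca2 did not overlap WT in FPKM, with few fragments in some libraries, and were not called, and Tyr overlapped WT. Whether the matches bear on these levels was not tested.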

How the data were processed

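Total RNA was extracted with a Qiagen kit and run on an Illumina Genome Analyzer IIx, on 1 flow cell. FPKM values, as deposited by the authors, come from TopHat, Cufflinks and Cuffdiff on mm10, per the labels; for versions and annotation, not given in the sources used here. Of 37819 entries, 18 with several values per library were left out. Gene coordinates and transcript lengths came from GENCODE M21. Genes reaching FPKM 1 in 3 or more of the 9 libraries (16587) were fitted as log2(FPKM + 1) in R 4.3.3 by limma 3.58.1, which used group means, moderated variances with a trend and no term for replicate number. A gene was called where the p adjusted by Benjamini-Hochberg over all genes tested was 0.05 or less. The limma fit of both groups together was also run on simulated data with known changes. These had independent normal spread around the WT means of genes past the filter. They held no libraries that stood apart and no counting of fragments, so they do not test how calls behave under those. Intervals are 95% from the limma fit of the deposited values. Depth was estimated from the most frequent FPKM times transcript length of genes with 1 annotated transcript of at least 1500 bases and FPKM under 0.5; estimated fragments cover counting error only. Promoter windows came from RefSeq. Correlations were tested by exact permutation over 720 orders. Python 3.11.15, numpy 2.4.6, scipy 1.17.1 and matplotlib 3.10.9 were used.

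The 10 genes and the 9 lists of other genes were chosen with earlier results of these data known. Genes named beside the 10 were the targeted genes, the 2 highest and up to 3 of smallest unadjusted p of each list, and the 5 genes nearest to Dct. Alternatives were a pseudocount of 0.1, no filter, median-ratio scaling, a block for replicate number, only the groups compared, library weights, and leaving out each library or the 2 apart on the first principal component.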

Additional observations from a re-analysis of the deposited data

How the results depend on the processing

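The count of melanocyte genes called and of all genes called moved with the processing, and the cause was not tested. For Tyr-NrasQ61K against WT, 2 melanocyte genes were called; the count was 1 with a pseudocount of 0.1, with median-ratio scaling and with only the groups compared, 0 without the filter and without Tyr-NrasQ61K replicate 2 and MHCII-KO replicate 2, and 5 with library weights. Of all genes 39 were called, against 24 with a pseudocount of 0.1, 66 with median-ratio scaling and 5076 with library weights. For MHCII-KO against WT, 1 melanocyte gene was called, against 0 with a pseudocount of 0.1, without the filter, with only the groups compared and without the 2 libraries apart on the first principal component, and 4 with library weights. Of all genes 24 were called, against 37 with median-ratio scaling and 7407 with library weights. Between the NrasQ61K groups, 8 genes were called, against 14 without the 2 libraries and 24 with library weights. The genes of the 10 without overlap went from 3 to 5 without the 2 libraries and to 2 with median-ratio scaling. For both groups together, 2 melanocyte genes were called, against 1 without the filter and without the 2 libraries, and 5 with library weights. Of all genes 66 were called, against 164 with median-ratio scaling and 7542 with library weights. Leaving out 1 library at a time gave 11 to 36, 9 to 29, 7 to 11 and 26 to 98 genes called, 0 to 2, 0 to 0, 0 to 0 and 0 to 2 melanocyte genes called, and 7 to 8, 7 to 8, 3 to 5 and 7 to 7 without overlap, in the same order of comparisons.

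With the replicate number as a block, the melanocyte genes called for both groups together were 4 (Pmel and Mlana were added, with limma adjusted p of 0.0327 and 0.0320), and the genes called were 894 for Tyr-NrasQ61K against WT, 777 for MHCII-KO against WT and 2675 for both groups together. Libraries of the same number had correlated deviations of -0.0384 to 0.332, not over 0.1 in every pair. Libraries of different number in different groups had -0.270 to 0.162. Whether libraries of the same number share a batch or a pairing was not tested.

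Direction changed for Tyr, Pmel, Mitf and Tspan10 in the comparisons given here. Tyr against WT went to -0.15 in Tyr-NrasQ61K, to -0.22 in both groups together with library weights, to -0.0206 in both without the 2 libraries, and to 0.0776 in MHCII-KO with median-ratio scaling. Leaving out 1 library gave Tyr -0.14 to 0.32, -0.38 to 0.0872 and -0.26 to 0.20 in Tyr-NrasQ61K, MHCII-KO and both. Between the NrasQ61K groups Pmel went to 0.18 with library weights, Tspan10 to -0.0892 with library weights and -0.0337 without the 2 libraries, and leaving out 1 library gave Mitf -0.36 to 0.0665 and Tspan10 -0.0855 to 0.16. The signs of Dct, Mlana, Pmel, Mitf and Tspan10 against WT held in all alternatives run. FPKM near 1 fragment limits what can be said of Dct, Mlana, Tyrp1, Slc45a2 and Oca2 in WT.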
